A study of Homo sapiens with 12 samples.

Results

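The Sprouty genes SPRY1, SPRY2 and SPRY4, the SPRED genes SPRED1, SPRED2 and SPRED3, the ETS factor genes ETV4 and ETV5 and the Eph receptor genes EPHA2 and EPHA4 were followed by symbol, as 10 of the 26372 gene symbols in RNA-seq tables of HCT116 cells. HCT116 is a human colorectal carcinoma line. Polyadenylated RNA was measured in 6 groups: cells with a knockout of the histone demethylase gene KDM3A (KO) and wild-type cells (WT), each as mock cultures in normal medium, as starved cultures in medium without serum, and as refed cultures that received fetal bovine serum after 24 h without it. The labels list 2 samples per group, but the tables hold 1 column per group with no replicate number, so each group entered as 1 value and no replicate error is available. Whether a column averages both samples or holds 1 of them is not given in the sources used here, and this may differ between KO and WT columns. The time from serum addition to harvest, the way KDM3A was deleted and whether the knockout cells are 1 clone are not given in the sources used here.

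In the RAS-ERK pathway, growth factor receptors activate RAS and then the kinases RAF, MEK and ERK. Active ERK induces genes that report its activity and in part restrain it. Sprouty proteins bind receptor adaptors and damp signalling from receptors to RAS and RAF. SPRED proteins, which share the Sprouty cysteine-rich domain, bring the RAS inactivator neurofibromin to the membrane. ETV4 and ETV5 are transcription factors of the PEA3 group that carry the growth factor signal to further genes, and the repressor CIC holds ETV4, ETV5 and Sprouty genes down until ERK relieves it. EPHA2 and EPHA4 are receptor tyrosine kinases for ephrin ligands on neighbouring cells, and their transcript levels are used in scores of ERK pathway output.

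Promoter sequence was available for 8 of the 10 genes from RefSeq (build GRCh38.p14), as 14 windows of the 250 bases before an annotated transcript start. The tables of values were made on hg19 and give no coordinates, so genes and windows were joined by symbol alone. Shown here are the window of EPHA2, the gene with the widest spread between groups, that of SPRY4, the gene with the lowest p between KO and WT, and the SPRED3 window that shares a motif with EPHA2. Capitals mark matches to the CIC octamer TGAATGAA, the cyclic AMP response element TGACGTCA, the AP-1 site TGANTCA, the ETS core CGGAAG and the SRF CArG box, each searched on both strands.
EPHA2, chr1:16156070-16156319, minus strand: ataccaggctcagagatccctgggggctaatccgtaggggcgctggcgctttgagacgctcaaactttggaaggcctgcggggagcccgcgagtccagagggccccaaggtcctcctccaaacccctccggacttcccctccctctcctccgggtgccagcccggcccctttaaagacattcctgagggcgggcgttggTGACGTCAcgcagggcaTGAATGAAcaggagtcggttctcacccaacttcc
SPRY4, chr5:142324248-142324497, minus strand: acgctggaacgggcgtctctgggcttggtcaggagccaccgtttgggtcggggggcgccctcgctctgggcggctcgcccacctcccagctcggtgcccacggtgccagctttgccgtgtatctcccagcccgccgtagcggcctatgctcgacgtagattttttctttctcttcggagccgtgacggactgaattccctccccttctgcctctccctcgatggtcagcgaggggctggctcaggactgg
SPRED3, chr19:38389541-38389790, plus strand: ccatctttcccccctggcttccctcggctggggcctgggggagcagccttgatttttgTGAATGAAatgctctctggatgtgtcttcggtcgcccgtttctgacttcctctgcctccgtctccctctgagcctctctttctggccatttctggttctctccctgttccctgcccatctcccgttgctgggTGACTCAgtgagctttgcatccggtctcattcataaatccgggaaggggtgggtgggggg
The EPHA2 window held the cyclic AMP response element starting 51 bases and the CIC octamer starting 34 bases before the transcript start. The CIC octamer was found in 2 of the 14 windows, those of EPHA2 and SPRED3, and in 1.40% of the 35116 windows of all RefSeq genes. The cyclic AMP response element was found in 1.65% of all windows and, among the 14, in that of EPHA2. The SPRED3 window also held an AP-1 site starting 60 bases before the start (6.57% of all windows). A window of SPRY1 held the ETS core (16.5% of all windows), no CArG box was found (1.16% of all windows), and 11 of the 14 windows, that of SPRY4 included, held none of these letters. The SPRY4 gene reaches position 142325021 of chromosome 5, past its window, so the bases before that outermost end were not searched.

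KDM3A was at 3.15, 3.01 and 3.59 FPKM (fragments per unit of transcript length and of sequencing depth) in KO mock, starved and refed cells, against 41.3, 17.8 and 19.8 FPKM in WT. The groups therefore carried the difference their labels name. Of 14 epithelial markers 12 reached 1 FPKM, of which 10 rose and 0 fell in KO by the limma fit described below, beside 28.7% and 4.58% of all features. After median-ratio rescaling 7 rose and 1 fell, beside 12.3% and 10.8% of all features. Without WT mock the median log2 difference of the 12 was 0.68, against 0.20 for all features. The summed level of the 14 was 5764, 5163 and 6359 FPKM in mock, starved and refed KO cells, against 2823, 2392 and 2857 FPKM in WT. The keratin KRT8 was at 2425, 2316 and 2776 FPKM in KO and 1011, 1002 and 1148 FPKM in WT. The part of this marker difference in the KO differences below was not tested. EPCAM was at 179 to 203 FPKM in KO and 145 to 176 FPKM in WT, and CDX2, an intestinal factor, at 6.51 FPKM or more in every group, while VIL1 and CDX1, further intestinal markers, were at 0.0452 FPKM or less. In each group 1 of 10 fibroblast and 2 of 7 leukocyte genes reached 1 FPKM. WT mock stood apart. Of 20 endothelial genes, 17 reached 1 FPKM there and 3 in each other group, and their summed level was 310.8 FPKM in WT mock and between 50.7 and 93.4 FPKM in the other 5. The endothelial cadherin CDH5 was at 25.8 FPKM in WT mock, at 0.0622 FPKM or less in the 3 KO groups and the other WT groups, and listed at 0 in KO mock and KO starved. The FPKM values of WT mock also summed to 1149307, against 481036 to 629410 in the other 5 groups, and to 522060 in WT mock without genes of short noncoding RNAs, against 444293 to 593581. Several of the genes described here are known to be transcribed in endothelium too, and the part these transcripts have in WT mock values was not tested. Differences between genotypes averaged over the states, and responses averaged over genotypes, are therefore also given with WT mock left out. Fewer cells of a type and less RNA per cell cannot be told apart in such bulk samples.

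All 10 genes reached 1 FPKM in at least 1 group, SPRED3 in WT mock alone. By level they fell into a high set of SPRY4, ETV4, ETV5, SPRED2 and EPHA2, at 9.24 FPKM or more in every group, and a low set of SPRY1, SPRED3 and EPHA4, at 1.58 FPKM or less in every group. SPRY2 and SPRED1 lay between, at 2.21 to 5.39 FPKM. The ratio of the highest to the lowest group was 11.8 for EPHA2, 3.99 for SPRY1, 2.61 for SPRY4, 2.50 for EPHA4 and 2.26 for SPRY2. It was 1.21 for ETV4 and 1.15 for SPRED2, the most even of the 10.

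**Figure D1:**
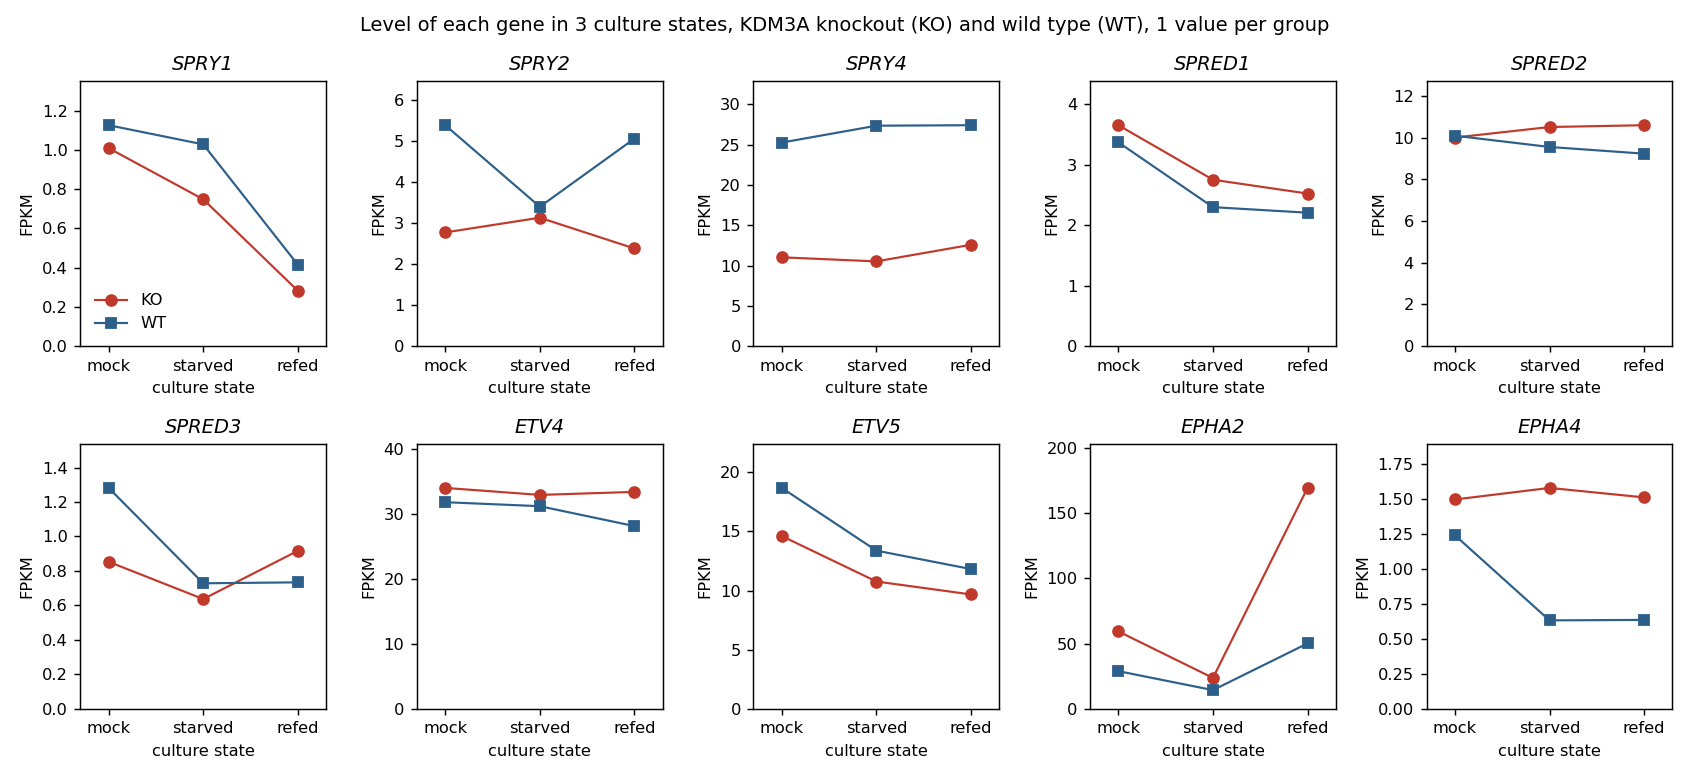
FPKM (vertical axis, from 0, scaled per gene) in mock, starved and refed culture for KO (circles) and WT (squares), 1 value per group and no error bars because no replicates were available. SPRY4 was lower in KO in each state (10.5 to 12.6 FPKM in KO, 25.3 to 27.4 FPKM in WT), and EPHA2 was highest in KO refed (169 FPKM).

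The comparison of KO with WT asks which of these transcripts differ when KDM3A is lost. SPRY4 was lower in KO in all 3 states. It was at 11.02, 10.5 and 12.6 FPKM in mock, starved and refed KO cells, against 25.3, 27.4 and 27.4 FPKM in WT. KO therefore held 43.6%, 38.4% and 45.9% of the WT level, while culture state moved SPRY4 little within either genotype. Averaged over states in an additive limma fit of genotype and state on log2(FPKM + 1), SPRY4 fell in KO by 1.16 on the log2 scale (SE 0.0707, adjusted p = 0.00319). With 1 value per group, that adjusted p measures how even the difference was over the 3 states against the leftover spread, and not against replicate error. Without WT mock the difference was -1.18 (adjusted p = 0.0201). SPRY4-IT1, a noncoding RNA from the SPRY4 locus, was at 0.123, 0.316 and 0.583 FPKM in mock, starved and refed KO cells and at 0.629, 0.983 and 1.30 FPKM in WT. Whether counting used strand is not stated, so overlapping transcripts of the locus cannot be told apart.

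SPRY2, a Sprouty known as a feedback inhibitor of several growth factor receptors, was lower in KO in mock and refed cells but near WT in starved cells. It was at 2.77, 3.13 and 2.38 FPKM in mock, starved and refed KO cells, against 5.39, 3.40 and 5.06 FPKM in WT. The KO level was 51.5% and 47.1% of WT in mock and refed cells and 92.1% in starved cells. The averaged difference of -0.56 did not pass (SE 0.166, adjusted p = 0.0596 by limma), and was -0.47 without WT mock (adjusted p = 0.179). After median-ratio rescaling of all 6 groups it was -0.71 with adjusted p = 0.0486. SPRY1, which acts at the same step, was at 1.01, 0.749 and 0.282 FPKM in mock, starved and refed KO cells and at 1.13, 1.03 and 0.415 FPKM in WT. Each KO value lay under the WT value of its state, with an averaged difference of -0.15 (adjusted p = 0.316 by limma; -0.18 and 0.0792 without WT mock).

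The SPRED genes differed little between genotypes. SPRED2 was at 10.0, 10.5 and 10.6 FPKM in mock, starved and refed KO cells and at 10.1, 9.56 and 9.24 FPKM in WT. SPRED1, the member mutated in Legius syndrome, was at 3.66, 2.75 and 2.52 FPKM in KO and at 3.37, 2.3 and 2.21 FPKM in WT, in the same order. The averaged differences for SPRED2 and SPRED1 were 0.10 and 0.14. After median-ratio rescaling they were -0.08 and -0.0023, and after upper-quartile rescaling -0.10 and -0.02, and none of these passed. Without WT mock they were 0.15 and 0.16 and did not pass (adjusted p = 0.0979 and 0.0912 by limma). SPRED3, which lacks a working KIT-binding domain, was at 0.853, 0.637 and 0.917 FPKM in KO and at 1.28, 0.728 and 0.734 FPKM in WT. Its KO value was lower in mock and starved cells and higher in refed cells, and its averaged difference was -0.08, but 0.03 without WT mock (adjusted p = 0.652 and 0.753).

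The pair of PEA3 factors parted. ETV5 was lower in KO in each state, at 14.6, 10.8 and 9.67 FPKM in mock, starved and refed KO cells against 18.7, 13.4 and 11.8 FPKM in WT. KO held 78.2%, 80.5% and 81.8% of the WT level, so the shortfall was small and even. ETV5 fell in KO by 0.30 on the log2 scale (SE 0.0534, adjusted p = 0.0209 by limma), and without WT mock the difference was -0.28 (adjusted p = 0.0356). ETV4 was at 33.96, 32.9 and 33.3 FPKM in KO and at 31.8, 31.1 and 28.1 FPKM in WT. Its averaged difference of 0.14 did not pass (adjusted p = 0.173; 0.16 and 0.149 without WT mock) and turned negative after both rescalings.

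The Eph receptor genes were higher in KO. EPHA2 was at 59.3, 23.7 and 169 FPKM in mock, starved and refed KO cells, against 28.9, 14.3 and 50.1 FPKM in WT. The KO level was 2.06, 1.65 and 3.38 times that of WT in the same state, although the ranges over states overlapped. EPHA2 rose in KO by 1.15 on the log2 scale (SE 0.213, adjusted p = 0.0221 by limma). Without WT mock the difference was 1.21 and no longer passed (adjusted p = 0.0606 by limma). Leaving out KO mock gives the same difference by construction and is no second check. EPHA4 was at 1.495, 1.58 and 1.51 FPKM in KO and at 1.24, 0.632 and 0.635 FPKM in WT. The KO level was 1.21 times that of WT in mock cells and 2.50 and 2.38 times in starved and refed cells. The averaged difference of 0.48 did not pass (SE 0.137, adjusted p = 0.0560 by limma). Without WT mock it was 0.64 and passed (adjusted p = 0.0216). Leaving out KO mock again gives the same difference by construction.

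Taken over the 10 genes, 1 rose and 2 fell at adjusted p under 0.05 in the averaged comparison, where 33.3% of the 13456 features tested passed in either direction. In either direction the share of the 10 is near that of all features. By direction 28.7% of all features rose and 4.58% fell, and with calls this few no direction is read from the 10. After median-ratio rescaling 1 rose and 3 fell, SPRY2 being added, beside 12.3% and 10.8%. Without WT mock SPRY4, ETV5 and EPHA4 passed, beside 42.5% of all features in either direction. With all 6 groups the median log2 difference of the 10 was 0.01, against 0.16 for all features. Relative to that shift of all features, SPRY4, ETV5 and EPHA2 differed by -1.32, -0.45 and 0.99. The calls rested on few values: with KO or WT starved or refed left out, none of the 10 passed. SPRY4 then had adjusted p between 0.0579 and 0.0627 by limma. Leaving out KO or WT of the same state gives the same KO difference by construction. The share of all features that passed in those fits is not given here, so the lack of calls is not read as particular to the 10. Over all alternatives tried, adjusted p ranged from 0.00153 to 0.0627 for SPRY4, 0.00799 to 0.188 for ETV5, 0.0140 to 0.127 for EPHA2, 0.0453 to 0.267 for SPRY2 and 0.0216 to 0.272 for EPHA4. The direction of these 5 genes held in every one, although the alternative filters and the fit without variance trend cannot change a difference. At 2-fold or more on log2(FPKM + 1), a count without a test, SPRY4 was lower and EPHA2 higher in mock cells (5.48% of features differed 2-fold in either direction) and in refed cells (4.92%), and SPRY4 was lower in starved cells (4.04%). All features shifted by a median of 0.07, 0.19 and 0.22 in mock, starved and refed cells. The mock value of EPHA2, log2 1.01, lay just past 2-fold and was 0.94 after median-ratio rescaling.

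**Figure D2:**
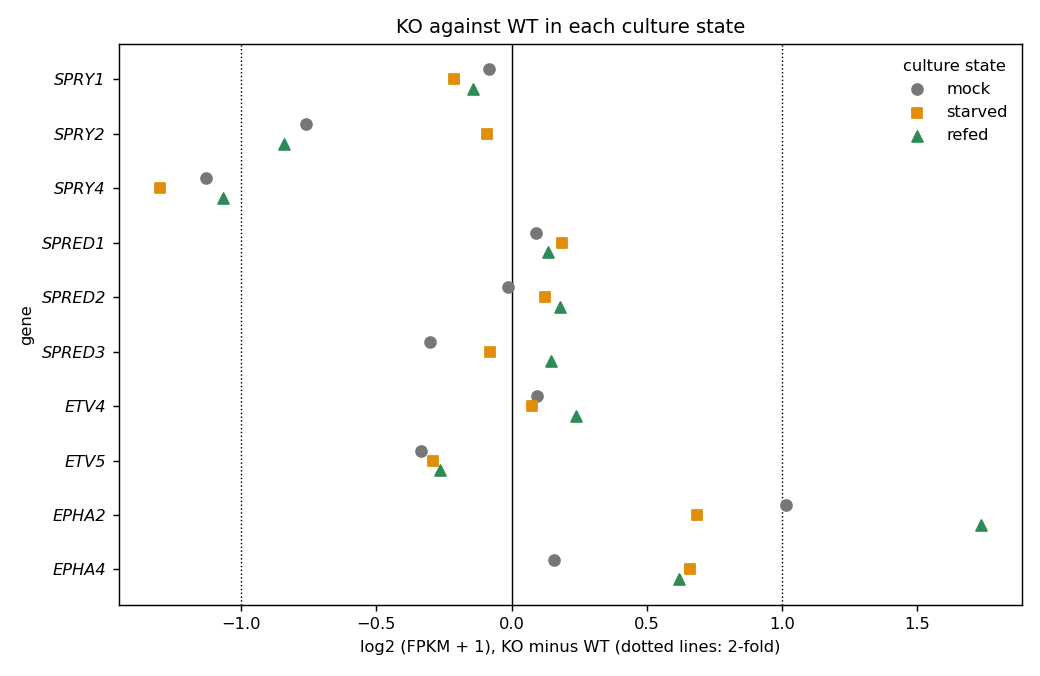
Difference in log2(FPKM + 1), KO minus WT (horizontal axis), for each of the 10 genes (vertical axis) in mock (circles), starved (squares) and refed culture (triangles), 1 value each; dotted lines mark 2-fold. SPRY4 lies beyond 2-fold on the lower side in all 3 states (-1.13, -1.30 and -1.07) and EPHA2 on the higher side in mock and refed cells (1.01 and 1.74).

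The response to serum withdrawal was read from starved against mock cultures. EPHA2 was lower in starved cells of both genotypes, at 23.7 FPKM in KO starved against 59.3 FPKM in KO mock, and at 14.3 FPKM in WT starved against 28.9 FPKM in WT mock. Averaged over genotypes it fell by 1.13 on the log2 scale (SE 0.261, adjusted p = 0.0419 by limma). ETV5 fell by 0.43 (SE 0.0653, adjusted p = 0.0211) and SPRED1 by 0.36 (SE 0.0753, adjusted p = 0.0349). The ETV5 response was nearly equal in both genotypes, -0.41 in KO and -0.45 in WT, as was that of SPRED1 at -0.31 in KO and -0.41 in WT. With WT mock left out, the mock level came from KO mock alone and WT starved and refed cells entered through the genotype term. The differences were then -1.03 for EPHA2, -0.40 for ETV5 and -0.32 for SPRED1 (adjusted p = 0.171, 0.0633 and 0.0767 by limma), and 0.171% of all features passed. None of the 10 passed either when KO starved, KO refed, WT starved or WT refed was left out. For those fits and the fit without KO mock, the share of all features that passed is not given here. Their counts are therefore not read as particular to the 10. With KO mock left out, the mock level came from WT mock alone. EPHA4 then had a difference of -0.45, against 0.04 with WT mock left out. Without KO mock, ETV5, SPRED1 and EPHA4 passed (adjusted p = 0.0341, 0.0418 and 0.0363) and EPHA2 did not (0.109). Over all alternatives adjusted p ranged from 0.0283 to 0.256 for EPHA2, 0.0180 to 0.268 for ETV5 and 0.0290 to 0.319 for SPRED1.

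These 3 falls among 10 genes compare with 19.4% of all features that fell, 25.2% that passed in either direction, and a median of -0.13 over all features. After median-ratio rescaling SPRED1 had -0.25 with adjusted p = 0.0544. At 2-fold, EPHA2 was lower in KO (2.13% of features differed 2-fold in either direction) and none of the 10 differed in WT (4.94%), where EPHA2 reached -0.96. SPRY4 and ETV4 differed by 0.11 or less on the log2 scale in either genotype. The responses of KO and WT lay furthest apart for SPRY2 and EPHA4, by 0.67 and 0.50. SPRY2 had a log2 difference of 0.13 in KO and -0.54 in WT, and EPHA4 had 0.05 in KO and -0.46 in WT. The WT values of both rest on WT mock, and the differences between genotypes were not tested.

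Refed cells were compared with starved cells to describe the response to serum. EPHA2 had the largest difference of the 10 genes in both genotypes. It was at 169 FPKM in KO refed against 23.7 FPKM in KO starved, 7.16 times as much, and at 50.1 FPKM in WT refed against 14.3 FPKM in WT starved, 3.50 times as much. On log2(FPKM + 1) these steps were 2.79 in KO and 1.74 in WT, apart by 1.05, a difference between genotypes without a test. EPHA2 was the one gene of the 10 past 2-fold in KO (2.42% of all features in either direction) and in WT (2.38%). Averaged over genotypes its difference was 2.26 (SE 0.261) and narrowly did not pass (adjusted p = 0.0549 by limma), with a range of adjusted p over the alternatives of 0.0264 to 0.443. None of the 10 genes passed, against 0.825% of all features, and 2 of the 10, EPHA2 and SPRY1, had an unadjusted p under 0.05, beside 9.6% of all features. Without WT mock the adjusted p of EPHA2 was 0.175, its difference being the same by construction.

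The Sprouty genes did not share one response to serum. SPRY1 was at 0.282 FPKM in KO refed against 0.749 FPKM in KO starved, and at 0.415 FPKM in WT refed against 1.03 FPKM in WT starved. The refed level was 0.377 and 0.403 times the starved level in KO and WT, close to each other and opposite to EPHA2. The averaged log2 difference of -0.48 did not pass (adjusted p = 0.316). The pseudocount of 1 FPKM compresses the difference of so low a gene: with 0.1 FPKM it was -1.15 in KO and -1.13 in WT. SPRY2 was at 2.38 FPKM in KO refed against 3.13 FPKM in KO starved, and at 5.06 FPKM in WT refed against 3.40 FPKM in WT starved. SPRY4 differed by 0.24 in KO and by less than 0.01 in WT on the log2 scale.

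SPRED1, SPRED2, ETV4, ETV5 and EPHA4 differed by less than 0.17 on the log2 scale between refed and starved cells in either genotype. SPRED3 was 1.44 times as high in KO refed as in KO starved and 1.01 times in WT. ETV5 and SPRED1 did not return to their mock levels in refed cells. ETV5 in refed cells was at 0.662 of its mock level in KO and 0.633 in WT, and SPRED1 at 0.691 and 0.655. EPHA2 in refed cells exceeded its mock level 2.86 times in KO and 1.74 times in WT.

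**Figure D3:**
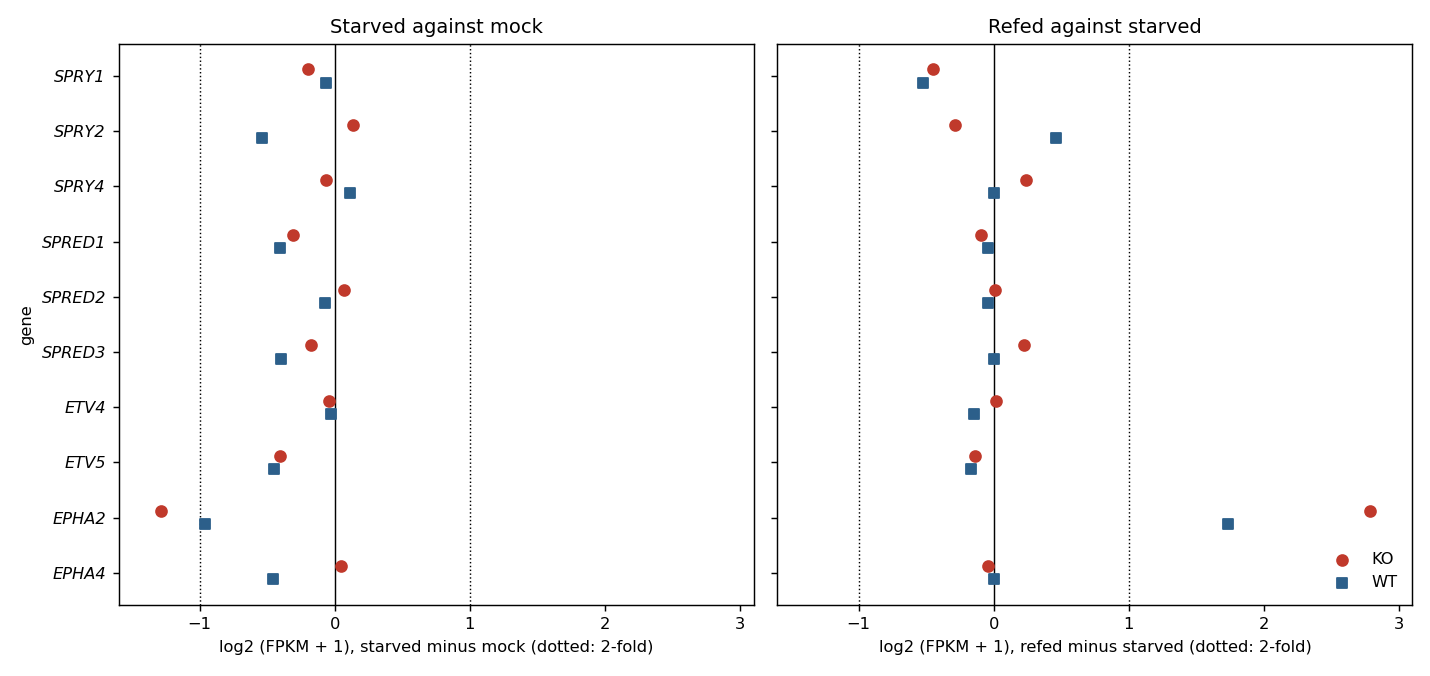
Difference in log2(FPKM + 1) for each gene (vertical axis) between starved and mock cells (left) and refed and starved cells (right), KO as circles and WT as squares, 1 value each; dotted lines mark 2-fold. EPHA2 moves furthest in both panels (-1.29 in KO and -0.96 in WT, then 2.79 and 1.74), and SPRY2 lies on opposite sides of 0 in KO and WT in the right panel (-0.29 and 0.46).

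Of 15 other genes read out from ERK, 14 reached 1 FPKM. In refed against starved cells 5 of the 14 rose and 0 fell, beside 0.773% of all features that rose. The other 9 did not pass. After median-ratio rescaling 4 rose, beside 0.944% of all features, and without WT mock 1, DUSP4, beside 0.0892%. FOSL1, an AP-1 subunit, was at 216 FPKM in KO refed against 25.9 FPKM in KO starved and at 203 FPKM in WT refed against 18.6 FPKM in WT starved (averaged log2 3.19, SE 0.138, adjusted p = 0.00647 by limma; 0.0524 without WT mock). DUSP5, a nuclear ERK phosphatase, had 3.55 (adjusted p = 0.0281; 0.110 without WT mock). DUSP4, another nuclear phosphatase of MAP kinases, had 2.27 (adjusted p = 0.00386; 0.0394 without WT mock). DUSP6, the cytoplasmic ERK phosphatase, had 0.33 and did not pass (adjusted p = 0.415); it was named after its values were seen.

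**Figure D4:**
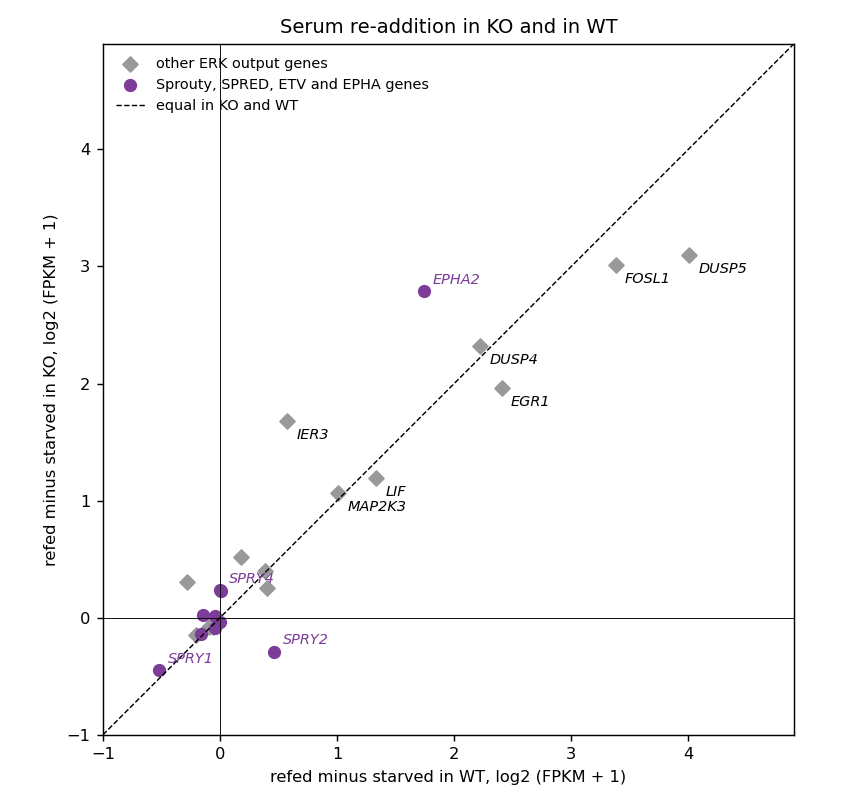
Refed minus starved on log2(FPKM + 1), WT on the horizontal and KO on the vertical axis, for the 10 Sprouty, SPRED, ETV and EPHA genes (circles) and the 14 other ERK output genes that reached 1 FPKM (diamonds); the dashed line marks equal differences in KO and WT. EPHA2 (2.79 in KO, 1.74 in WT) lies above the line beside DUSP4 (2.32 and 2.22), while the other 9 of the 10 genes lie within 0.52 of 0 on both axes.

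Between genotypes, 3 of these 14 other ERK output genes rose in KO and 4 fell, beside 28.7% and 4.58% of all features, and after median-ratio rescaling 3 rose and 6 fell, beside 12.3% and 10.8%. Without WT mock 4 rose and 4 fell, beside 37.4% and 5.01%. The early transcription factor EGR1 fell by 1.21 (adjusted p = 0.0143) and was at 13.3, 11.1 and 46.2 FPKM in mock, starved and refed KO cells against 23.5, 26.9 and 147 FPKM in WT. CCND1, the G1 cyclin D1, and DUSP4 rose, by 0.89 (adjusted p = 0.00951) and 0.83 (adjusted p = 0.00432). With WT mock left out, EGR1, CCND1 and DUSP4 had differences of -1.43, 0.97 and 0.83, and all 3 passed. ETV1, the third PEA3 factor, was at 0.946 to 1.12 FPKM in KO and 2.36 to 3.07 FPKM in WT, and it too was named after its values were seen.

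Upstream in the RAS-ERK pathway, 33 of 33 listed genes reached 1 FPKM, of which 11 rose and 2 fell in KO, beside 28.7% and 4.58% of all features. There were 5 higher and 3 lower after median-ratio rescaling (12.3% and 10.8% of all), and without WT mock 14 rose and 2 fell (37.4% and 5.01%). The shares that rose are thus near those of all features. SHC1, the adaptor that links receptors to RAS, fell by 1.09 (SE 0.0876, adjusted p = 0.00515), at 20.7, 23.3 and 26.0 FPKM in mock, starved and refed KO cells against 51.8, 48.3 and 51.3 FPKM in WT. The receptor genes FGFR4 and ERBB2 rose by 0.74 (adjusted p = 0.00846) and 0.68 (adjusted p = 0.00702). Without WT mock the differences of SHC1, FGFR4 and ERBB2 were -0.99, 0.73 and 0.67, and all 3 passed. In refed against starved cells none of the 33 passed. Among those at 5 FPKM or more in a group, the largest differences there were -0.16 for the receptor ERBB3 and 0.14 for NRAS (adjusted p = 0.800 and 0.776 by limma).

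Of 23 measured genes for other ETS factors and their regulators, 6 rose and 2 fell in KO, beside 28.7% and 4.58% of all features. There were 5 and 3 after median-ratio rescaling (12.3% and 10.8% of all) and 8 and 2 without WT mock (37.4% and 5.01%). ELK3 and ELF1 rose by 0.96 (adjusted p = 0.00636) and 0.51 (adjusted p = 0.0156), and EHF, an epithelial ETS factor, fell by 0.81 (adjusted p = 0.0140). ETV1 is among the falls counted here and among those of the other ERK output genes. ERG counts as measured through WT mock alone, at 3.64 FPKM there and 0.0410 FPKM or less elsewhere. For ELK3, ELF1 and EHF the differences without WT mock were 1.06, 0.59 and -0.97, and all 3 passed. None passed in refed against starved cells, where ETS2 had 1.26 (adjusted p = 0.241) and ETV3 had 0.81 (adjusted p = 0.0519). Of 12 measured genes for other Eph receptors and ephrins, 7 rose and 0 fell in KO, with 6 and 2 after median-ratio rescaling and 7 and 0 without WT mock, beside the same shares of all features. EFNA1, a ligand of EPHA2, rose by 0.80 (adjusted p = 0.0266) and was at 21.5, 27.8 and 23.5 FPKM in mock, starved and refed KO cells against 16.4, 14.8 and 9.95 FPKM in WT. EPHB3 and EFNB1 rose by 0.77 (adjusted p = 0.0138) and 0.68 (adjusted p = 0.0155). Without WT mock the differences of EFNA1, EPHB3 and EFNB1 were 1.01, 0.88 and 0.80, and all 3 passed. None of the 12 passed in refed against starved cells. Among those at 5 FPKM or more in a group, EFNB2 and EFNA1 differed most there, by 0.54 and -0.38 (adjusted p = 0.341 and 0.721 by limma).

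The genes with the most similar profile over the 6 groups were sought among 9025 genes that reached 5 FPKM in a group, by distance between centred log2(FPKM + 1) values. The nearest to EPHA2 were PLAUR, the urokinase receptor (distance 0.600), and DUSP4 (0.717). PLAUR was at 103, 46.5 and 258 FPKM in mock, starved and refed KO cells and at 60.9, 26.9 and 133 FPKM in WT. The nearest to SPRY4 were the stress-signalling kinase gene MAP3K5 (0.218) and SHC1 (0.239). MAP3K5 was at 2.16 to 2.28 FPKM in KO and 5.695 to 5.995 FPKM in WT. APBB1 (0.323) and SYT1 (0.334) lay nearest to SPRY2, and FRG1CP (0.120) and the metalloprotease gene ADAM9 (0.147) to ETV5. GRIPAP1 and FAM207A lay nearest to SPRED2 and UBE2J2 and TNNT1 to ETV4, at 0.0511 or less, but those profiles were almost flat. Without WT mock, PLAUR and DUSP4 stayed the 2 nearest to EPHA2 (0.588 and 0.706), FAM95C came before MAP3K5 and SHC1 for SPRY4, and CAMK2N2 lay between SYT1 and APBB1 for SPRY2. For ETV5, TNFRSF1A came before FRG1CP, and ADAM9 ranked 9. FAM95C, CAMK2N2 and TNFRSF1A are named under that setting alone. With 6 groups of 1 value each, such likeness is a description.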

How the data were processed

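Polyadenylated RNA of HCT116 cells was sequenced in 12 labelled samples of 6 groups. Per the submitters' processing notes, cutadapt, FastQC and TopHat2 were used, with genome build hg19. The deposited FPKM values were computed by the authors; the program, the annotation and how 2 samples became 1 column are not given in the sources used here, and each table is deposited with 1 of the 2 samples of its group. Total reads are unknown. Ratios of WT starved to WT refed were taken for 3692 genes under 0.05 FPKM in both. Of these, 36.1% lay within 0.5% of 0.903 times a ratio of whole numbers up to 4. Other pairs of groups reached 3.47% to 14.3%. If FPKM was scaled by total reads, which is not stated, the depth of WT refed would be 0.903 of WT starved. These 2 columns may thus each hold single reads of 1 library while others may be means of 2, which cannot be told apart here. No counting error can be given.

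Ratios were taken on log2(FPKM + 1), a scale that understates changes of low genes, for features that reached 1 FPKM in a group. The 7 comparisons of 1 value with 1 value have no test. For 3 averaged comparisons, limma 3.58.1 (R 4.3.3) fitted genotype and state as additive terms with a variance trend, leaving 2 residual degrees of freedom. Benjamini-Hochberg adjustment ran over 13456 features. The fit was also run on simulated data with a common spread for all genes and no shift of most features. That setting differs from these data, so the run does not vouch for the calls. Python 3.11.15, pandas 2.3.3 and numpy 2.4.6 were used. Named genes were the 10 members, KDM3A, per list the 3 largest KO differences and 2 largest serum differences at 5 FPKM or more, and the 2 nearest profiles per member at 5 FPKM. Members and lists were chosen with earlier results of these data known.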

Additional observations from a re-analysis of the deposited data

Results flagged for a closer look

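SPRY2 moved in opposite directions on serum re-addition in the 2 genotypes, by -0.29 in KO and 0.46 in WT on log2(FPKM + 1). Each direction rests on 1 refed and 1 starved value, and the difference between genotypes was not tested. It was the one gene of the 10 whose responses were opposite with at least 1.2-fold in both genotypes. The KO step lay just past that limit. With a pseudocount of 5 FPKM both steps fell under it, to -0.14 in KO and, narrowly, to 0.26 in WT. The share of all features with such opposite responses is not given here.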

How the results depend on the processing

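No paired analysis was possible because the columns carry no replicate numbers. No difference past its threshold changed sign. Of 100 differences (10 genes in 10 comparisons), 28 changed sign under at least 1 alternative, each 0.24 or less in size on the log2 scale as reported; they include KO against WT of SPRED1, SPRED2 and ETV4 after rescaling and SPRY2 starved against mock, -0.20 and 0.15 without WT starved. Counts of the 10 genes past 2-fold moved as follows. KO against WT in mock cells gave 2, then 0 with a pseudocount of 5 FPKM, 1 with median-ratio or upper-quartile rescaling and 3 at 1.5-fold. In starved cells it gave 1, then 2 with a pseudocount of 0.1 FPKM and 3 at 1.5-fold. In refed cells it gave 2, then 4 with 0.1 FPKM, 1 with 5 FPKM, 4 at 1.5-fold and 3 after either rescaling, which put SPRY2 past 2-fold (-1.06 and -1.09). Starved against mock in WT gave 0, then 1 with 0.1 FPKM and 1 at 1.5-fold. Refed against starved gave 1 in KO and 1 in WT, and 2 in each with 0.1 FPKM. In the limma fits, KO against WT gave 3 genes, 5 with 0.1 FPKM, 4 after either rescaling, and 0 to 3 with 1 group left out. It gave 4 with a filter on mean FPKM and 2 without the filter on low values, where EPHA2 did not pass (adjusted p = 0.127 by limma). Starved against mock gave 3, then 0 without the filter on low values and 0 to 3 with 1 group left out. Starved against mock also gave 2 with a pseudocount of 5 FPKM, 2 without variance trend and 2 after either rescaling. Refed against starved gave 0, then 1 with 0.1 FPKM or a filter on mean FPKM. With 1 group left out the fit keeps 1 residual degree of freedom. Leaving out KO or WT of the same state then gives the same KO against WT difference by construction. Read depth is unknown, so genes near 1 FPKM (SPRY1, SPRED3, EPHA4) have no stated counting error.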
